A study of Mus musculus with 23 samples.

Results

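Among 11 RNA libraries of CD103+ type 1 conventional dendritic cells (cDC1) from melanomas whose cancer cells cannot make prostaglandin E2 (PGE2), 6 held 10 or more raw counts of Top2a and 4 held 2 or fewer. These 2 classes, called Top2a-high and Top2a-low here, are compared across genes, and the 1 library between the limits was left out of the test. The pools were chosen by their Top2a counts, so Top2a is no finding and was removed before any scaling or testing. Of the 23 libraries of the series, the other 12 came from control tumours and serve only as background. Mice were wild-type C57BL/6 animals injected under the skin with BRAFV600E melanoma cells that were either control cells or cells lacking Ptgs1 and Ptgs2, both cyclooxygenase genes. Cells of the host keep both genes, no PGE2 level was measured in these data, and the labels state no age. Tumours were taken at day 6. Live cells that carried CD45, MHC-II, CD11c and CD103 and lacked CD11b were sorted into lysis buffer in pools of 10 cells, and each pool gave 1 library by Smart-seq3, which reads whole transcripts from few cells. The PGE2-deficient pools came from 4 mice, with 3 pools from mice 1, 3 and 4 and 2 from mouse 2. The labels call pools of a mouse technical replicates, so p-values measure the spread between pools that partly share a mouse. In pooled RNA, fewer cells with a transcript and less of it per cell cannot be told apart.

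Top2a encodes topoisomerase II alpha, which untangles DNA strands and is made mostly from late S phase to mitosis. A dividing cell first copies its DNA with replication enzymes and new histones, and then builds a spindle and separates its chromosomes. Tissue cDC1 arise from precursors that seed the tissue from blood and can divide there, and they depend on the transcription factors Irf8 and Batf3. After sensing danger or taking up dying cells, dendritic cells can mature: they make the migration receptor Ccr7, costimulatory molecules and interleukin 12. Type I interferon, made after nucleic acids are sensed, induces another set of genes that includes Irf7 and Isg15.

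Promoters of cell cycle genes carry short recurrent letters, and 3 are printed because they belong to the gene that chose the pools and to genes of mitosis (Hmgb2) and of replication (Rrm1) described next. Each is the 150 bases before the RefSeq start in GRCm38.p6, 5′ to 3′ on the strand of the gene. Capitals mark the CCAAT box (CCAAT) and the cell cycle homology region (TTTGAA or TTCGAA), on either strand. Top2a lies on the minus strand at chr11:99024190-99024339, Hmgb2 on the plus strand at chr8:57511693-57511842 and Rrm1 on the plus strand at chr7:102441545-102441694.
Top2a: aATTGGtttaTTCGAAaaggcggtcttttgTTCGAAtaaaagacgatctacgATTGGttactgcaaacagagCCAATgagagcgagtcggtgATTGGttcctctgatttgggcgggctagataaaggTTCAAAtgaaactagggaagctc
Hmgb2: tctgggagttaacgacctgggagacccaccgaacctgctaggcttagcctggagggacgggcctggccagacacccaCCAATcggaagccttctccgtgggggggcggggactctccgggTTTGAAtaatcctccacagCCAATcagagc
Rrm1: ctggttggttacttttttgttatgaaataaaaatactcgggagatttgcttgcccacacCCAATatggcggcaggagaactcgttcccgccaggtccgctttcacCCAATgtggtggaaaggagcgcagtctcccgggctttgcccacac

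The windows searched were the 250 bases before the start. A CCAAT box stood in 30 of the 38 promoters found for the list of mitosis genes (78.95%) and in 18 of 31 for the list of DNA replication genes (58.06%). Its share was 36.11% of the 1274 promoters found for tested genes and 34.46% of all 27025 promoters in the table. The box also stood in 75% of chromatin and histone promoters and 47.62% of cDC1 identity promoters. Shares were 42.11% for interferon gamma, 34.48% for type I interferon and 22.73% for maturation promoters. The cell cycle homology region stood in 15 of the 38 mitosis promoters (39.47%) against 16.13% of the replication promoters and 17.43% of all. It also stood in 41.67% of the 12 chromatin and histone promoters and 27.59% of the 29 type I interferon promoters. The letters GAAANNGAA, part of the interferon response element, stood in 14 of 29 promoters of type I interferon genes (48.28%), in 9.524% of cDC1 identity promoters and in 7.156% of all. Their share was higher still in interferon gamma promoters (13 of 19, 68.42%), and it was 18.18% in maturation promoters. These are matches of letters and were not tested. Stmn1, H2afz, Hist1h2ap and Ccl5 have no promoter entry.

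The Top2a-high pools were mouse 1 pool 1, mouse 1 pool 2, mouse 2 pool 3, mouse 3 pool 1, mouse 3 pool 3 and mouse 4 pool 2, with 11, 21, 10, 16, 32 and 18 Top2a counts in that order. The Top2a-low pools were mouse 1 pool 3, mouse 2 pool 2, mouse 3 pool 2 and mouse 4 pool 3, with 1 count each. Mouse 4 pool 1, with 5 counts, lay between the limits, so the pool just inside the upper limit (mouse 2 pool 3) held 10 counts and the nearest pool outside it 5. All 4 mice had pools of both classes. Library totals bear on a choice by raw counts. They were 34088, 56429, 49506, 78019, 98554 and 57775 in the Top2a-high pools in the order above, and 43228, 51511, 53905 and 37341 in the Top2a-low pools. The 2 deepest libraries were Top2a-high, but the shallowest was too. Scaled to the library total, Top2a ran from 202 to 372 CPM (counts scaled to the same library total) in Top2a-high pools and from 18.6 to 26.8 CPM in Top2a-low pools, and it was 101 CPM in the pool between. Top2a-high pools had 5506 to 8868 detected genes and Top2a-low pools 5891 to 7136, and mitochondrial transcripts were 2.66% to 5.14% and 3.41% to 4.88% of the counts. No 2 of the 11 libraries were the same library, as their counts differed by more than sampling noise (chi-squared per degree of freedom of 2.306 or more over 55 pairs). A count of 0 allows up to 3 counts, which is 30.4 to 88.0 CPM by library (counting error only).

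**Figure D1:**
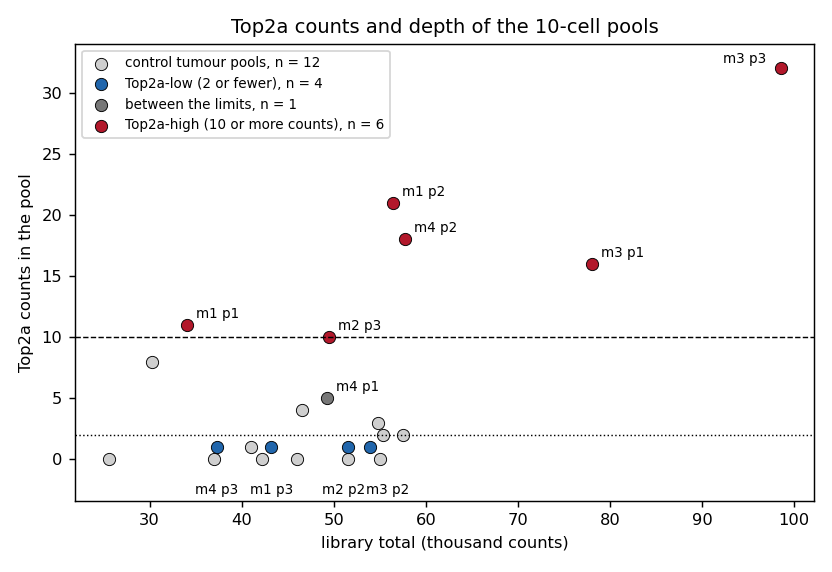
Raw Top2a counts (vertical axis) against the library total in units of 1000 counts (horizontal axis), 1 point per pool of 10 cells, with the limits of the classes as lines at 10 and 2 counts. The 6 Top2a-high pools hold 10 to 32 counts at totals of 34088 to 98554, the 4 Top2a-low pools hold 1 count each, and no control pool reaches 10.

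The same limits applied to control tumours gave 0 of 12 pools with 10 or more Top2a counts and 9 with 2 or fewer. Control pools were shallower, with 25571 to 57523 counts, and their Top2a reached 264 CPM in 1 pool against a median of 12.2. The sorted cells carried cDC1 markers in every pool of both classes: Xcr1, Clec9a, Irf8, Batf3, Itgae (which encodes CD103) and Naaa summed to 113 to 223 counts. Markers of division followed the classes in part. Mki67, the Ki-67 antigen, had 3, 6, 12, 10, 10 and 5 counts in the Top2a-high pools, but 1, 10, 0 and 0 in the Top2a-low pools. The 10 counts were in mouse 2 pool 2, which also held 16 of Hmgb2 and 13 of Smc4. The division markers Mki67, Hmgb2, Stmn1, Cdk1 and Birc5 summed to 38, 57, 77, 56, 118 and 86 counts in the Top2a-high pools. In the Top2a-low pools they summed to 4, 32, 22 and 8. No Top2a-low pool can therefore be called free of dividing cells, and the classes are named by Top2a and not as cycling and resting.

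Transcripts of cell cycle genes were higher in the Top2a-high pools. They go with the choosing gene, so they are described without a test. The 44 mitosis genes summed to 6601, 3633, 5757, 3115, 5165 and 5037 CPM in the Top2a-high pools and to 1134, 2485, 2875 and 1634 CPM in the Top2a-low pools, and the classes did not overlap. Over pooled counts 43 of the 44 were higher in the Top2a-high class and 1 lower, beside 965 higher and 889 lower of the 1854 tested genes. In pooled counts the 2 deep Top2a-high pools of mouse 3 weigh most. Of the 44 genes 8 had enough counts to test, so the tested genes are no matched background for this list. Hmgb2, a chromatin protein of dividing cells, had 359 to 1039 CPM (median 565, n = 6) against 69.4, 311, 315 and 161 CPM. Stmn1, which destabilises microtubules, had 13, 3, 15, 12, 23 and 5 counts against 0, 0, 3 and 2. Nusap1, a spindle protein, had 34 counts in the Top2a-high class and 0 in the Top2a-low class, and the kinetochore gene Knl1 had 27 and 0. The inhibitor of apoptosis Birc5, part of the chromosomal passenger complex, had 53 and 5 counts, and the kinase gene Cdk1 25 and 3. Cks1b, a subunit of cyclin-dependent kinases, had 146 ± 47.7 CPM (SD, n = 6) against 60.9 ± 29.9 (n = 4). The tubulin genes Tuba1b and Tubb5, which resting cells also use, overlapped between the classes, with 796 ± 228 against 474 ± 171 CPM and 677 ± 310 against 406 ± 117 CPM.

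Replication genes varied more within the Top2a-high class. The 38 genes of the S phase list summed to 968, 567, 364, 1846, 2141 and 1852 CPM in the Top2a-high pools and to 254, 621, 482 and 1098 CPM in the Top2a-low pools. Both pools of mouse 3 and the pool of mouse 4 were high, while both pools of mouse 1 and the pool of mouse 2 lay within the range of the Top2a-low pools. Mouse 2 pool 3 thus had the lowest replication sum of its class beside the second highest mitosis sum. Most members had too few counts to test: 2 of 38 passed the filter. Over pooled counts 33 were higher, 4 lower and 1 without a count, beside 965 higher and 889 lower of the 1854 tested genes. The deep pools of mouse 3 weigh most in these counts, and the tested genes are no matched background for members with so few counts. Rrm1, a subunit of ribonucleotide reductase, had 5, 4, 1, 11, 14 and 6 counts against 0, 2, 0 and 0. Its partner Rrm2 had 4, 1, 2, 10, 4 and 2 counts and was at 0 in all Top2a-low pools. Pclaf, a factor bound to the replication clamp PCNA, had 35, 9, 3, 26, 35 and 19 counts against 0, 3, 0 and 0. Mcm5, part of the replicative helicase, had 1, 3, 0, 3, 11 and 5 counts against 0, 1, 1 and 0, so it was at 0 in 1 Top2a-high pool. Pcna itself overlapped between the classes, with 40.4 to 193 CPM against 46.3, 136, 18.6 and 53.6 CPM.

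Histone and chromatin genes were also higher. The 25 genes summed to 13172, 6309, 6444, 5652, 7661 and 5850 CPM against 3586, 3359, 3636 and 5035 CPM, again with no overlap. Hist1h2ap, a replication histone of the H2A family, had 78, 44, 15, 23, 70 and 15 counts against 3, 3, 3 and 5. The protein-coding gene spans chromosome 13, 21833026 to 21833507, minus strand, in GRCm38. Its near-identical copy Hist1h2ao had 98, 35, 11, 17, 66 and 8 counts against 3, 2, 5 and 6, so the split of reads between them is uncertain. H2afz, the histone variant H2A.Z, had 1463 ± 349 CPM (SD, n = 6) against 773 ± 192 (n = 4). Its relative H2afv had 7, 5, 12, 4, 12 and 7 counts against 0, 0, 2 and 0.

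**Figure D2:**
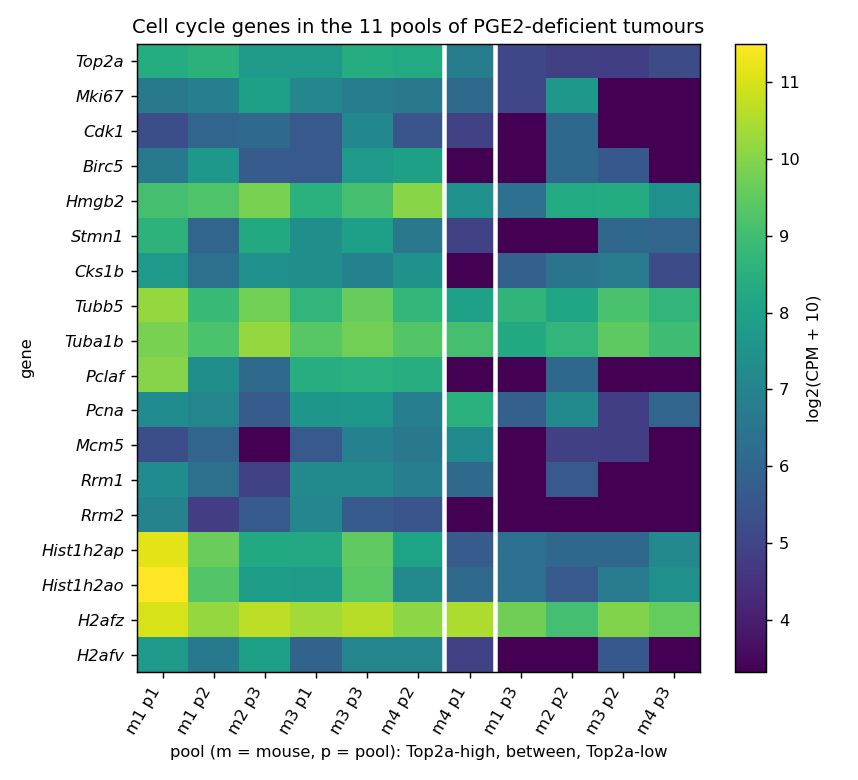
Levels of 18 cell cycle genes (rows) in the 11 PGE2-deficient pools (columns, m for mouse and p for pool), coloured by log2(CPM + 10), with white lines between the Top2a-high pools, the pool between the limits and the Top2a-low pools. Hmgb2 and Hist1h2ap separate the classes in all pools, Pclaf has 3 counts in both pools of mouse 2, while Mki67 is also present in the Top2a-low pool of mouse 2, with 10 counts.

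The question across all other genes was which identity, maturation and interferon genes go with division. Of 1854 genes with enough counts, 0 passed the threshold of 0.05 on the adjusted p (edgeR quasi-likelihood test, Benjamini-Hochberg), which is 0% of those tested. At an unadjusted p under 0.05, 54 genes were higher (2.91%) and 32 lower (1.73%) in the Top2a-high pools. The classes did not overlap for 17 genes in the higher direction (0.917%) and for 10 in the lower (0.539%). The smallest adjusted p was 0.0856, shared by Hist1h2ap and Pclaf, cell cycle genes that stayed among the 1854. Both go with the choosing gene and passed the filter through the Top2a-high pools. Their p and calls, here and in other fits, therefore only describe the choice of pools. With the mouse as a block 2 genes passed (0.108%): Hist1h2ap with a log2 fold change of 2.85 and Ccl5 with -4.26 (both adjusted p = 0.0303, edgeR). DESeq2 called 2 genes, Hist1h2ap and Pclaf. Counts at an unadjusted p under 0.05, here and in what follows, are from fits without the block unless the block is named. The pools varied with a common biological coefficient of variation of 34.4%, so a gene that misses the threshold may still differ.

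Outside the cell cycle, the genes with the smallest p were picked after their values were seen. Dnase1l3, a secreted nuclease that digests extracellular DNA, had 1, 13, 19, 12, 7 and 8 counts in the Top2a-high pools and 1, 0, 0 and 1 in the Top2a-low pools. Its CPM did not overlap between the classes. It passed the filter only through the Top2a-high pools, so its fold and p are not given. This protein-coding gene is at chromosome 14, 7964533 to 7994573 (GRCm38, minus strand). Lst1, a leukocyte membrane protein, had 1, 7, 10, 6, 10 and 8 counts against 0, 0, 2 and 1. Limd2, a LIM domain protein, had 4, 4, 9, 8, 7 and 15 counts against 1, 2, 2 and 1. Class means of all 3 were higher in each of the 4 mice, and Lst1 alone of them overlapped. Here and in what follows, a gene is higher or lower in a mouse by the mean CPM of its Top2a-high pools against its Top2a-low pool. In the other direction, Sdf2l1, a protein of the chaperone machinery in the endoplasmic reticulum, had 50.3 ± 21.6 CPM (SD, n = 6) against 164 ± 35.2 (n = 4). The kinase gene Sgk1 had 46.4 ± 32.6 against 160 ± 52.8 CPM, and Ccdc88a, which encodes the actin-binding protein girdin, 104 ± 52.6 against 265 ± 57.6 CPM. CPM of these 3 genes did not overlap between the classes and were lower in each of the 4 mice. Sdf2l1 and Sgk1 passed the filter only through the Top2a-low pools and had to differ, so their fold and p are not given. Ccdc88a also passed the filter through the Top2a-low pools, where it was high, so its adjusted p of 0.359 (edgeR) is a description. The lysosomal protease gene Ctsz had 150 ± 79.8 against 360 ± 91.0 CPM and overlapped.

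Genes of cDC1 identity overlapped in level between the classes. The 25 members summed to 20669 to 27341 CPM (median 23915) in the Top2a-high pools and to 24799, 23490, 22911 and 27075 CPM in the Top2a-low pools. Of 17 tested members 0 passed the adjusted threshold and 1 was lower at an unadjusted p under 0.05, where 1.73% of all tested genes were. Log2 fold changes were positive for 8 and negative for 9, with a median of 0.00 to 2 decimals. Irf8, the factor that sets cDC1 fate, had 1297 ± 253 CPM (SD, n = 6) against 1177 ± 153 (n = 4), a log2 fold change of 0.12 with a 95% interval from -0.34 to 0.58. Xcr1, the chemokine receptor that marks cDC1, had 205 to 485 CPM (median 259) against 254, 194, 186 and 241 CPM. Its highest value was in mouse 4 pool 2, and its log2 fold change of 0.39 had an interval from -0.32 to 1.09. Clec9a, the receptor for dead cells, had 175 ± 66.8 against 183 ± 98.2 CPM, and Itgae 265 ± 144 against 230 ± 64.2 CPM. Batf3 had 105 ± 31.4 against 146 ± 53.6 CPM and Tlr3, the sensor of double-stranded RNA, 183 ± 132 against 316 ± 190 CPM. Both were lower in 4 of 4 mice, with overlapping pools and adjusted p of 0.992 (edgeR). Id2, Flt3, Zbtb46 and Cd24a, further factors and surface proteins of these cells, had log2 fold changes from -0.07 (Flt3) to 0.21 (Zbtb46), and each was higher in some mice and lower in others.

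The identity gene with the smallest p was Naaa, a lysosomal enzyme that cleaves fatty acid amides and is used to stain cDC1. It had 968, 1028, 808, 731, 599 and 1212 CPM in the Top2a-high pools and 1411, 990, 1187 and 1848 CPM in the Top2a-low pools. The pools overlapped, but within each of the 4 mice the Top2a-low pool was above the mean of the Top2a-high pools. The log2 fold change was -0.62 ± 0.24 (SE) with p = 0.0201 and an adjusted p of 0.866 (edgeR). Plet1, a membrane protein of the identity list, had 337 to 1320 CPM against 416, 272, 761 and 53.6 CPM and was higher in 4 of 4 mice (0.88 ± 0.45, adjusted p = 0.992, edgeR). Of 18 precursor genes 14 were in the table and 4 could be tested, of which 0 had an unadjusted p under 0.05. Spi1, the transcription factor PU.1, had the smallest p of them, with 112 ± 75.1 CPM against 84.2 ± 26.8, and Kit, the receptor of stem cell factor, had 93.8 ± 49.8 CPM against 74.3 ± 21.3. Siglech, Ly6d, Cd34 and Cx3cr1, which mark earlier or plasmacytoid precursors, were at 0 in all 11 pools.

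Maturation genes ranged widely within the Top2a-high class. The 28 genes in the table summed to 9094, 5051, 14604, 3640, 1187 and 1212 CPM in the Top2a-high pools and to 8328, 10347, 9647 and 6936 CPM in the Top2a-low pools. The 4 Top2a-low pools lay close together, while the Top2a-high class held the highest pool (mouse 2 pool 3) and the lowest ones (mouse 3 pool 3 and mouse 4 pool 2). Of 19 tested members 0 passed at either threshold without a block, 6 were positive and 13 negative, and their median log2 fold change was -0.28 beside 0.01 for all tested genes. Without the 3 pools that held T cell transcripts, described further on, the median turned to 0.24 with 14 positive. With the mouse as a block, Ccl22 (-1.52, p = 0.0324), Il12b (-1.54, p = 0.0351) and Fscn1 (-1.41, p = 0.0406) were lower at an unadjusted p under 0.05 (edgeR). Their adjusted p were 0.939 or more. In that fit Ccr7 (0.14), Cd274 (0.17), Cd86 (0.079) and Relb (0.035) were positive, and Cd83 (-0.17) was negative. Fscn1, the actin bundler of mature dendritic cells, had 17, 10, 36, 8, 0 and 0 counts against 20, 33, 10 and 36 (log2 fold change -1.27, interval -2.84 to 0.29). Il12b, which encodes a subunit of interleukin 12, had 30, 48, 1, 13, 0 and 0 counts against 45, 36, 4 and 13 (-0.86, interval -2.70 to 0.99), and its fold change was -0.30 without mouse 1 pool 3 and -2.91 without mouse 1. Ccr7, the receptor that guides mature cells to lymph nodes, had 22, 18, 36, 52, 1 and 0 counts against 13, 3, 17 and 24 (0.26, interval -1.33 to 1.85). Top2a-high pools with 0 or 1 count of all 3 genes were thus mouse 3 pool 3 and mouse 4 pool 2, and the other 4 held 18 to 52 Ccr7 counts. Costimulatory genes overlapped: Cd86 had 187 ± 55.7 CPM (SD, n = 6) against 182 ± 102 (n = 4) and Cd83 695 ± 337 against 733 ± 159 CPM. The chemokine Ccl22 had 26, 26, 8, 1, 0 and 0 counts against 13, 45, 11 and 1. Relb, an NF-kB subunit, had 145 ± 144 against 150 ± 116 CPM, and Cd274, which encodes the checkpoint ligand PD-L1, 157 ± 134 against 117 ± 66.4 CPM.

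Ccl5, a chemokine that attracts T cells and is on the maturation list, varied most. It had 8, 1, 229, 1, 1 and 0 counts in the Top2a-high pools, in the usual order, and 80, 182, 274 and 39 in the Top2a-low pools. In mice 1, 3 and 4 every Top2a-high pool had 8 or fewer counts and every Top2a-low pool 39 or more, while in mouse 2 the Top2a-high pool held 229 and the Top2a-low pool 182. In CPM this was 0 to 4626 (median 15.3) against 1851, 3533, 5083 and 1044, with 507 in the pool between the limits. The log2 fold change over all pools was -1.89 with an interval from -3.96 to 0.18 (p = 0.0711, adjusted p = 0.992, edgeR). Ccl5 passed the filter through the Top2a-low pools, where it was high, so its calls in filtered fits are descriptions. The call differed between fits. With no filter on low genes and all pools kept the log2 fold change was -1.84 and passed (adjusted p = 3.24e-08, edgeR). With a minimum count of 2 it was -1.83 and did not pass (adjusted p = 0.9, edgeR). The unfiltered call thus came with nearly the same fold and is a description too. Without mouse 2 pool 3, the pool with 10 Top2a counts, the log2 fold change was -6.25 (adjusted p = 2.26e-06), without both pools of mouse 2 it was -6.11 (adjusted p = 1.33e-05), with the mouse as a block -4.26 (adjusted p = 0.0303) and with limma-voom -6.25 (adjusted p = 0.00288). With pools summed per mouse and class beside the block it was -3.92 (adjusted p = 0.118), and without mouse 3 it was -0.88 (adjusted p = 0.992). The gene, protein-coding, is at chromosome 11, 83525778 to 83530518 (GRCm38, minus strand). Control pools held 0 to 90.3 CPM.

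**Figure D3:**
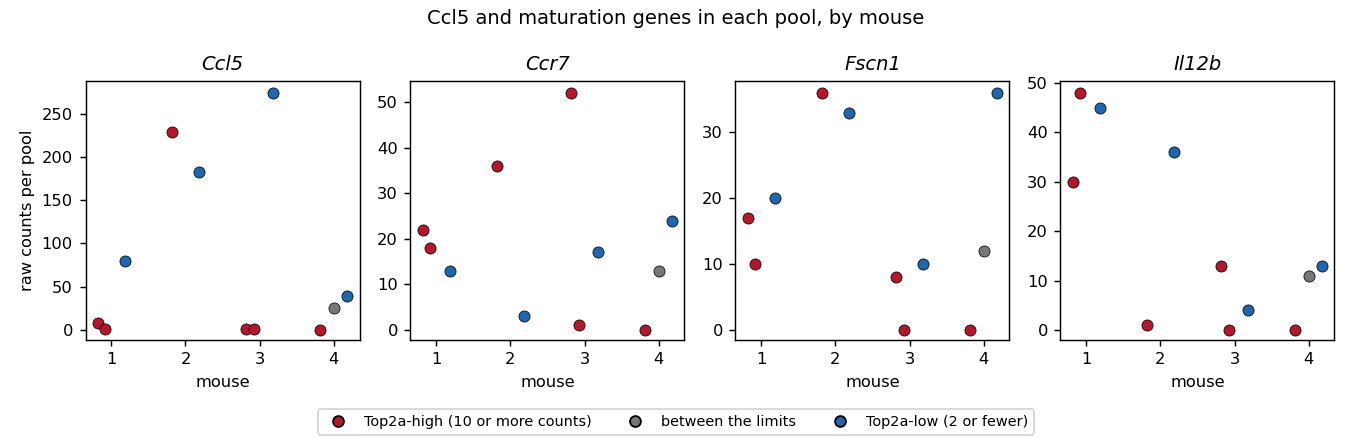
Raw counts per pool (vertical axis) of Ccl5, Ccr7, Fscn1 and Il12b by mouse (horizontal axis), red for Top2a-high pools, grey for the pool between the limits and blue for Top2a-low pools. Ccl5 is at 8 counts or fewer in 5 of the 6 Top2a-high pools and at 229 in mouse 2 pool 3, and Ccr7, Fscn1 and Il12b overlap between the classes.

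Type I interferon response genes overlapped between the classes as a list. The 40 genes summed to 4283, 12848, 6221, 9254, 9903 and 9572 CPM in the Top2a-high pools and to 7518, 7299, 11001 and 8757 CPM in the Top2a-low pools. Both pools of mouse 1 marked the ends of the Top2a-high range. Of 21 tested members 0 passed the adjusted threshold, and 2 were higher and 0 lower at an unadjusted p under 0.05, beside 2.91% and 1.73% of all tested genes. The median log2 fold change was 0.18 with 15 positive and 6 negative, and for the 20 genes also tested without the 3 pools that held T cell transcripts it was 0.02. Irf7, the transcription factor that amplifies the interferon response, had 3, 16, 13, 35, 37 and 17 counts against 2, 1, 13 and 6. In CPM it was at 88.0 to 449 (median 289) against 46.3, 19.4, 241 and 161, higher in 4 of 4 mice, with a log2 fold change of 1.35 ± 0.50 (SE), p = 0.0145 and an adjusted p of 0.821 (edgeR). Irf7 passed the filter through the Top2a-high pools, where it was high, so its fold, p and interval are descriptions. Its protein-coding gene occupies chromosome 7, 141262706 to 141266481 (GRCm38, minus strand). Zbp1, a sensor of Z-form nucleic acids, had 191 ± 89.1 CPM (SD, n = 6) against 91.4 ± 48.1 (n = 4) and was also higher in 4 of 4 mice (1.04 ± 0.48, adjusted p = 0.992, edgeR).

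Other interferon genes differed in sign. Isg15, a ubiquitin-like modifier, had 5, 37, 42, 18, 19 and 16 counts against 5, 2, 19 and 14 (log2 fold change 0.84, interval -0.30 to 1.99), and was higher in 2 mice and lower in 2. Ifi27l2a had 1152 ± 685 CPM (SD, n = 6) against 1719 ± 610 (n = 4), a log2 fold change of -0.54 with an interval from -1.29 to 0.21. Ifit3 had 3 counts in mouse 3 pool 1, 4 in mouse 1 pool 3, 1 in the pool between the limits and 0 elsewhere. Of 12 tested genes of the interferon gamma response 0 had an unadjusted p under 0.05, with 7 positive, 5 negative and a median of 0.10. Irf1 had 216 ± 213 against 166 ± 88.7 CPM, and its highest value, 626 CPM, was in mouse 2 pool 3. That pool also held 18 of the 35 counts of the chemokine Cxcl9 in the 10 pools. The immunoproteasome subunit Psmb9 had 594 ± 195 against 395 ± 156 CPM and was higher in 4 of 4 mice (0.59 ± 0.32, adjusted p = 0.992, edgeR).

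**Figure D4:**
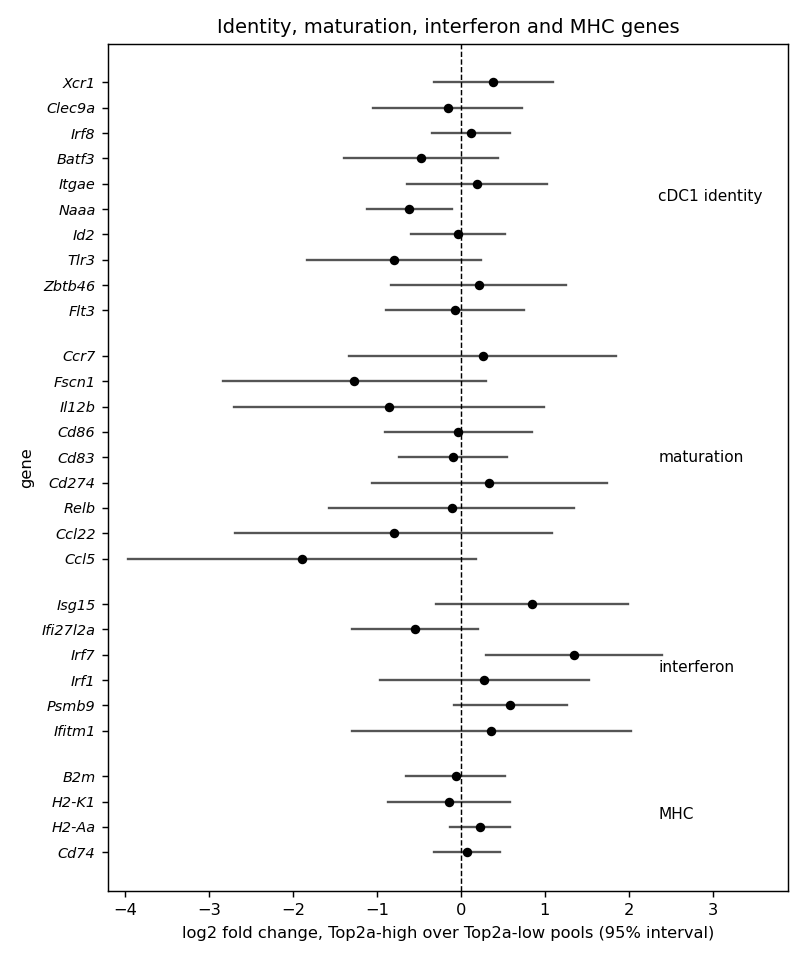
Log2 fold changes of Top2a-high over Top2a-low pools (horizontal axis, points) with 95% intervals (lines) for genes of cDC1 identity, maturation, interferon response and antigen presentation (rows). The intervals of Naaa (-1.12 to -0.11) and Irf7 (0.30 to 2.39) do not reach 0, all others shown include 0, and the longest is that of Ccl5. Irf7 passed the filter through the Top2a-high pools and Ccl5 through the Top2a-low pools, so their intervals are descriptions.

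MHC class I genes summed to 8998 to 10121 CPM in 5 of the 6 Top2a-high pools, below every Top2a-low pool (11358 to 12347 CPM). The other Top2a-high pool, mouse 2 pool 3, held 21391 CPM. Single genes overlapped between the classes. B2m, the light chain of MHC class I, had 4374 ± 2572 CPM (SD, n = 6) against 4511 ± 596 (n = 4), and H2-K1 had 753 ± 532 against 819 ± 230 CPM. Of 17 tested class I genes and 13 class II genes 0 had an unadjusted p under 0.05, and their median log2 fold changes were -0.09 and 0.07. H2-Aa, a chain of MHC class II, had 5643 ± 863 against 4801 ± 387 CPM and was higher in 4 of 4 mice (0.23, interval -0.13 to 0.59). The invariant chain Cd74 had 7364 ± 1554 against 7007 ± 1197 CPM.

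Among cytokines, Il1b, which encodes interleukin 1 beta, was higher in the Top2a-high class mean of each mouse, though single pools of mice 1 and 3 overlapped. It had 36, 18, 58, 31, 68 and 43 counts against 25, 11, 24 and 4, or 319 to 1172 CPM (median 717) against 578, 214, 445 and 107 CPM. The log2 fold change was 1.05 ± 0.42 (SE) with p = 0.0209 and an adjusted p of 0.866 (edgeR). Control pools had 522 to 3933 CPM. Il1b and 7 other tested genes form a list of PGE2 receptors and cyclic AMP targets, on which 2 were higher (Il1b and Ifitm2) and 1 lower (Nr4a2) at an unadjusted p under 0.05, where 2.91% and 1.73% of all tested genes were. Ifitm2, an interferon-induced membrane protein, had 984 ± 113 CPM (SD, n = 6) against 549 ± 368 (n = 4). The nuclear receptor gene Nr4a2 had 9, 3, 3, 10, 12 and 10 counts against 16, 8, 26 and 9, and was lower in 4 of 4 mice (-1.29 ± 0.43, adjusted p = 0.621, edgeR). Ifitm1 had 5, 6, 11, 7, 30 and 105 counts against 22, 37, 0 and 4, with no common direction among mice. The chemokine gene Ccl4 overlapped, with 717 ± 596 against 478 ± 366 CPM.

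Stress and signalling genes gave 2 further members below an unadjusted p of 0.05, both lower. They were 1 of 17 tested immediate early and dissociation genes and 1 of 9 NF-kB genes, beside 1.73% of all tested genes. Klf2, a transcription factor of quiescent leukocytes, had 1, 6, 1, 7, 12 and 2 counts against 23, 16, 6 and 3, which is 20.2 to 122 CPM (median 62.2) against 532, 311, 111 and 80.3 CPM. It was lower in 4 of 4 mice (-1.82 ± 0.55, p = 0.00348, adjusted p = 0.359, edgeR), and the pools of both classes overlapped. Rel, an NF-kB subunit, had 213 ± 63.6 CPM (SD, n = 6) against 344 ± 126 (n = 4) and was lower in 4 of 4 mice (-0.75 ± 0.35, adjusted p = 0.992, edgeR). The 17 tested genes of the immediate early and dissociation list had 8 positive and 9 negative fold changes with a median of -0.05.

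In the lists of growth and metabolism no tested gene had an unadjusted p under 0.05. The 36 cytosolic ribosomal protein genes had 8 positive and 28 negative log2 fold changes with a median of -0.13. Rpl5, the member with the smallest p, had 1131 ± 220 CPM (SD, n = 6) against 1413 ± 115 (n = 4). Nucleotide synthesis and MYC target genes had a median of -0.13 over 13 tested, glycolysis genes -0.18 over 10, nuclear respiratory chain genes 0.16 over 22 and genes of the mitochondrial genome 0.22 over 13. The glycolytic enzyme gene Gapdh had 616 ± 232 against 401 ± 135 CPM, Atp5g3, a subunit of ATP synthase, 357 ± 93.9 against 229 ± 86.3, and mt-Atp8, its mitochondrially encoded partner, 201 ± 86.5 against 122 ± 82.3. Nop58, a nucleolar protein, had 69.0 ± 38.2 against 147 ± 99.8 CPM, and Myc had 5 counts in the Top2a-high class and 2 in the Top2a-low class. The cell cycle inhibitor Cdkn1a had 5, 5, 2, 25, 20 and 0 counts against 0, 2, 3 and 6 (log2 fold change 1.19 ± 0.79).

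Some pools carried transcripts of T cells, which can divide too. The T cell receptor and CD3 genes Cd3d, Cd3e, Cd3g, Trac and Trbc2 summed to 13 counts in mouse 3 pool 3 and 24 in mouse 4 pool 2, both Top2a-high, to 13 in mouse 2 pool 2, which is Top2a-low, and to 0 in the other 8 pools. The whole T cell list, with 15 of 17 genes in the table and 13 detected, summed to 0, 0, 1, 4, 24 and 48 counts in the Top2a-high pools and to 0, 15, 3 and 1 in the Top2a-low pools. In CPM that is 0 to 831 against 0 to 291. The same Top2a-high pools had 0 or 1 count of Ccr7, Fscn1 and Il12b. Mouse 2 pool 2 also held 23 of the 46 counts of the NK and T cell receptor gene Klrd1 in the 10 pools. The defining markers of other cells that have a row in the table were at or near 0 in all 11 pools, with 0 to 4 counts for macrophages, 0 to 1 for melanoma cells (Pmel and Dct) and 0 to 5 for cDC2. For NK cells Klrb1c alone was in the table (0 to 1 counts), and for B cells and neutrophils no defining marker was. The whole lists summed to more: NK cell genes to 294 to 615 CPM in the Top2a-high pools and 134 to 835 in the Top2a-low pools, macrophage and monocyte genes to 256 to 1177 and 582 to 1071 CPM, and cDC2 genes to 218 to 720 and 187 to 1018 CPM. Their part in the differences was not tested. Plasmacytoid dendritic cell markers held 1 to 8 counts, all of Tcf4 except 1 count of Ccr9, with Siglech at 0. Some genes of these lists are also expressed by dendritic cells and were present in most pools: Fcer1g had 301 ± 141 CPM (SD, n = 6) against 469 ± 291 (n = 4), Ccr2 160 ± 128 against 279 ± 113, Klrk1 324 ± 162 against 220 ± 140, Lyz2 278 ± 239 against 256 ± 256 and Bst2 208 ± 108 against 185 ± 79.6. Klf4, of the cDC2 list, had 80.7 ± 59.4 against 88.3 ± 66.6 CPM and Ighm 54.7 ± 62.5 against 73.8 ± 47.6. Mzb1, Met, Vwf and Kdr had 0 to 6 counts in any pool.

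Without the 3 pools with T cell receptor and CD3 counts, 4 Top2a-high and 3 Top2a-low pools were left and 0 of 1792 genes passed the adjusted threshold (38 higher and 24 lower at an unadjusted p under 0.05, edgeR). Mitosis sums of these pools did not overlap, with 3115 to 6601 CPM against 1134 to 2875 CPM. The median of the 19 maturation genes turned from -0.28 to 0.24, and 14 in place of 6 were positive. For 20 type I interferon genes tested in both fits the median went from 0.18 to 0.02, for 12 interferon gamma genes from 0.10 to 0.53, and for 17 cDC1 identity genes from 0.00 to 0.04. Any further part of T cell RNA in the differences was not tested.

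**Figure D5:**
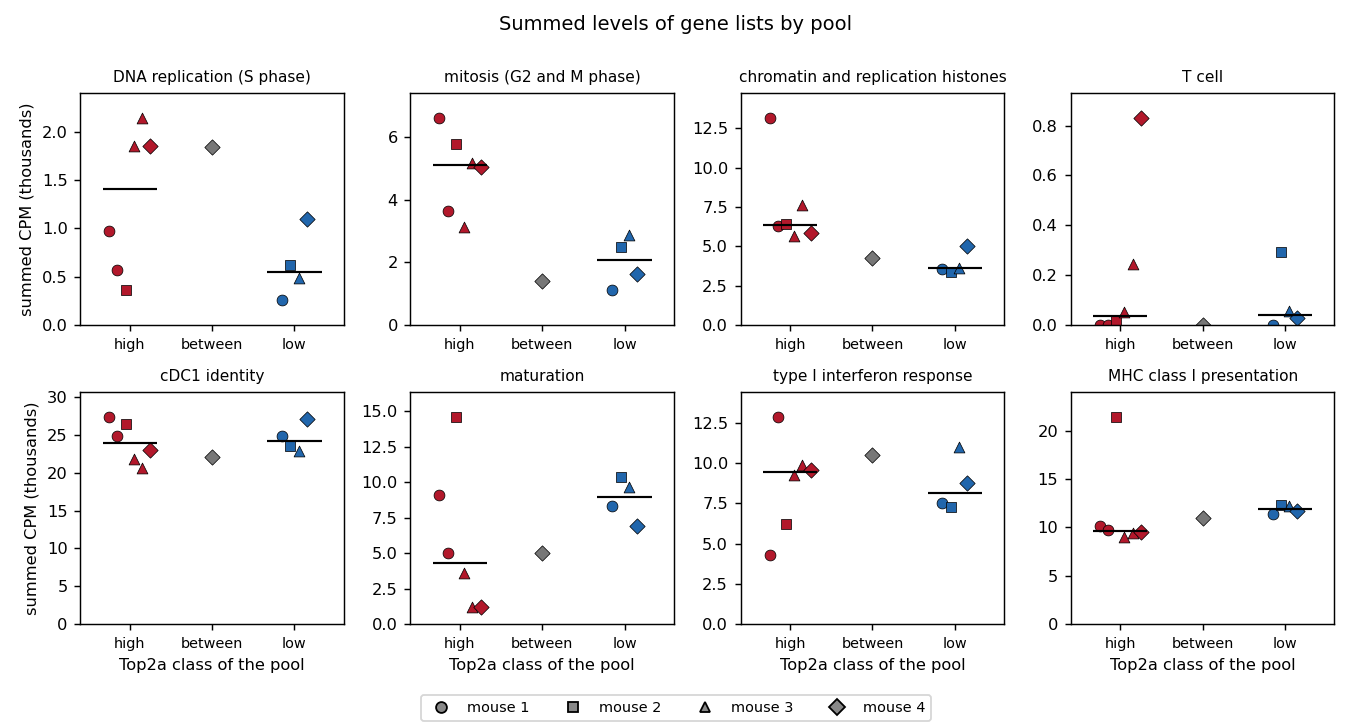
Summed CPM, in units of 1000 (vertical axis) of 8 gene lists in Top2a-high pools, the pool between the limits and Top2a-low pools (horizontal axis), with 1 symbol per pool, its shape giving the mouse, and a bar at the median of each class. Mitosis and histone sums do not overlap between the classes, cDC1 identity sums run from 20669 to 27341 CPM, and maturation sums are widest in the Top2a-high class.

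The pool between the limits, mouse 4 pool 1, was used in no test. Its S phase sum of 1845 CPM lay near the top of the Top2a-high range, whereas its mitosis sum of 1399 CPM and histone sum of 4238 CPM lay within the Top2a-low range. Pcna had 18 counts there, Rrm2 and Pclaf 0 and Hist1h2ap 2. Its maturation sum was 5049 CPM and its type I interferon sum 10483 CPM. Among the 12 control pools the mitosis sum ran from 704 to 3798 CPM with a median of 1092, and the S phase sum from 196 to 2642 CPM with a median of 637. Mitosis sums of 4 Top2a-high pools (5037 to 6601 CPM) were above every control pool.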

How the data were processed

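Libraries were made by Smart-seq3 from pools of 10 sorted cells. The authors deposited counts that are whole numbers and not normalized, with 13572 gene rows. The submitters' processing notes name STAR 2.5.4b and the build GRCm38 (mm10). What counted the reads, with which annotation, and whether molecules or reads were counted is not given in the sources used here. Genes were placed with GENCODE M21, where 13556 identifiers were found, and 16 symbols turned into dates were repaired. Depth ran from 34088 to 98554 counts in the PGE2-deficient pools, so low genes rest on few counts.

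The members, gene lists and tests were chosen with earlier results of these data known. Classes were selected on raw Top2a counts, and Top2a was then removed. The 6 Top2a-high and 4 Top2a-low pools were compared with edgeR 4.0.16 (quasi-likelihood F-test, TMM factors, R 4.3.3). Genes passed filterByExpr with a minimum count of 5 and a minimum total of 15, which left 1854 genes holding 78.4% of the counts. P-values were adjusted by Benjamini-Hochberg over all of them, with a threshold of 0.05, and log2 fold changes are from this fit. CPM are counts scaled to the library total and are printed with SD. Of 526 list members with a row, 252 could be tested. A gene that passed the filter only through the class where it is high had to differ, so counts over tested members are descriptions. The script was tested on simulated data.

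Genes were named by rule: a panel of identity, maturation, interferon, presentation and cell cycle genes, whatever their result, up to 10 called genes per direction whose CPM do not overlap, the called members or the member with the smallest p of each list, and the top 2 genes by counts of each list of another cell type. One gene of the panel is not reported here. Further genes named were chosen after their values were seen, among them Dnase1l3, Lst1, Limd2, Sdf2l1, Sgk1, Ccdc88a, Ctsz, Zbp1, Plet1, Ifitm2, Ccl4, H2afv, Pclaf, Nusap1, Knl1, Birc5, Cdk1 and Smc4.

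Mouse numbers pair the pools because both classes came from the same 4 mice. Deviations of same-mouse pools from their class mean correlated at -0.13 to 0.15 over 6 pairs, and those of other pools at -0.17 to 0.08 over 18 pairs (log2 CPM with a pseudocount of 50). Alternatives changed the scaling factors, the filter, the tool (DESeq2 1.42.0, limma 3.58.1), the block, the depth term, the thinning to the smallest total and the pools left out. The fits on summed pools with the block, and those without pools holding T cell receptor and CD3 counts, were added after seeing the data. Promoters came from RefSeq (GRCm38.p6), with 250 bases before the start searched on both strands.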

Additional observations from a re-analysis of the deposited data

Results flagged for a closer look

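In 33 of 195 groups of values tested (16.92%), 1 pool stood far from the others of its class by Dixon's criterion. The criterion's nominal rate of 1 in 20 assumes normally distributed values. Where 1 pool alone has any count, the group is always flagged. Groups also share pools and genes, so the share cannot be set against that rate. Most of them fall on few pools. Among the Top2a-high pools, mouse 2 pool 3 stood above the rest for genes of activation and presentation, with 4626 CPM of Ccl5, 424 of Relb, 626 of Irf1, 364 of Cxcl9, 9554 of B2m and 1838 of H2-K1, and for Mki67 with 242 CPM. Its MHC class I list summed to 21391 CPM and its MHC class II list to 48560 CPM.

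In mouse 1 pool 1 the replication histones Hist1h2ap and Hist1h2ao were at 2288 and 2875 CPM, Pclaf at 1027 CPM and the chromatin and histone list at 13172 CPM. Mouse 4 pool 2 held 485 CPM of Xcr1, 1817 of Ifitm1, 156 of Trbc2 and 831 CPM of the T cell list. Mouse 3 pool 1 alone of its class had Ifit3 (38.5 CPM), and mouse 1 pool 2 had 70.9 CPM of both Tcf4 and Met.

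Among the Top2a-low pools, mouse 2 pool 2 was apart for division and lymphocyte genes, with 194 CPM of Mki67, 58.2 of Pclaf, 38.8 of both Rrm1 and Myc, 77.7 of Cd3d, 116 of Trbc2, 447 of Klrd1 and 19.4 of Mzb1. Values of 19.4, 38.8 and 58.2 CPM there are 1, 2 and 3 counts. Mouse 3 pool 2 had 37.1 CPM of H2afv, where the others had 0, and the lowest Zbtb46 (37.1 CPM). Mouse 1 pool 3 held all Ifit3 of its class (92.5 CPM), and mouse 4 pool 3 had 214 CPM of Anp32b and 5035 CPM of the chromatin and histone list.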

How the results depend on the processing

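Of 1862 values of 70 genes under 28 other fits, 1741 kept both, 96 changed sign, 25 passed the threshold and 0 lost it. The counts of called genes rest on few pools. Against 0 higher and 0 lower, 3 genes were called higher with a minimum count of 2, 10 higher and 2 lower with no filter, 2 higher with DESeq2, 1 lower with limma-voom, and 3 higher with the log2 library total as covariate. Of the genes named, no filter called Hist1h2ap, Hist1h2ao, Pclaf, Dnase1l3, Nusap1, Stmn1, Hmgb2, H2afv and Ccl5. The minimum count of 2 and the covariate both called Hist1h2ap, Hist1h2ao and Pclaf, DESeq2 called Hist1h2ap and Pclaf, and limma-voom Ccl5. Cell cycle genes among these, and in the fits below, go with the choosing gene, so their calls are no finding. Dnase1l3 was picked after its values were seen and Ccl5 was called in some fits only, so their calls are descriptions. With the mouse as replicate block 1 gene was higher (Hist1h2ap) and 1 lower (Ccl5), and with pools summed per mouse beside the replicate block 1 was higher. With 1 pool or mouse left out, 0 to 2 were higher and 0 to 1 lower. These calls came without mouse 2 pool 3 (Pclaf, Hist1h2ap and Ccl5) and without mouse 2 (Pclaf and Ccl5). Top2a was at 10 counts in mouse 2 pool 3, so a higher limit would have left it out, while the nearest pool outside held 5. In CPM its Top2a (202) lay near that of mouse 3 pool 1 (205).

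Log2 fold changes near 0 turned sign. Cd86 (-0.03) was 0.024 with a minimum count of 2, 0.051 with no filter, 0.049 with limma-voom, 0.079 with the replicate block, 0.018 with summed pools, 0.11 with both, 0.10 with the total as covariate and 0.35 after thinning. With no filter Id2 was 0.047, Flt3 0.013 and B2m 0.018. With limma-voom Ccr7 was -1.06, Cd274 -0.47, Relb 0.50 and Irf1 -0.13. Relb was 0.035 with the replicate block and 0.056 with summed pools beside it, and B2m was 0.039 with summed pools. With the total as covariate Id2 was 0.23, Flt3 0.24, Cd83 0.16, Relb 0.52, B2m 0.035, H2-K1 0.035, Spi1 -0.29 and Bst2 -0.39. Lyz2 was -0.032 after thinning. Without the 3 pools with T cell receptor and CD3 counts Clec9a was 0.38, Itgae -0.053, Id2 0.069, Cd86 0.32, Cd83 0.13, Relb 0.35, Ccl22 0.87, B2m 0.14, H2-K1 0.24, Cd74 -0.018, Ifitm1 -0.57 and Lyz2 -0.34.

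With 1 pool or mouse left out the ranges that crossed 0 were -0.45 to 0.084 for B2m, -3.42 to 0.24 for Ccl22, -0.37 to 1.03 for Ccr7, -0.20 to 0.90 for Cd274, -0.088 to 0.15 for Cd74, -0.44 to 0.16 for Cd83, -0.33 to 0.23 for Cd86, -0.42 to 0.18 for Clec9a, -0.33 to 0.25 for Flt3, -0.62 to 0.024 for H2-K1, -0.37 to 0.17 for Id2, -1.21 to 1.25 for Ifitm1, -0.43 to 0.56 for Irf1, -0.17 to 0.49 for Itgae, -0.65 to 0.50 for Klf4, -0.45 to 0.99 for Lyz2, -0.82 to 0.44 for Relb and -0.089 to 0.35 for Zbtb46. Cd24a, at 0.00 over all pools, also crossed 0, with a range from -0.10 to 0.096, and was not counted among the sign changes. Among those that kept their sign, Fscn1 ran from -2.10 to -0.64, Isg15 from 0.13 to 1.52, Ifi27l2a from -0.96 to -0.22, Tlr3 from -1.18 to -0.34, Xcr1 from 0.17 to 0.62, Irf7 from 0.97 to 2.05 and Cdkn1a from 0.80 to 2.26. The cause of these changes was not tested. A planned fit without pools holding 10 or more counts of T, NK, B and melanoma cell lists was not run, since all 10 pools hold 13 or more.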
